A study of Homo sapiens with 6 samples.

Results

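The 8 genes described here, CD274, PDCD1LG2, CD276, CD47, PVR, CD55, CD59 and CD46, encode surface proteins with which tumour cells restrain immune attack. They were taken as a fixed list by gene symbol, all 8 of 8 were among the 15651 genes of the table, and all passed the filter on low values that left 15246 genes to test. MDA-MB-231, an established human cell line of triple-negative breast cancer (TNBC), supplied the RNA for 6 libraries, which comprised 3 of DMSO-treated cells and 3 of cells treated with BRL-50481. BRL-50481 is an inhibitor of phosphodiesterase 7A (PDE7A), an enzyme that breaks down cAMP, and the DMSO libraries are its vehicle control. The treatment text of the labels and the paper's methods state 50 μM and 72 h, the values taken here, but the samples also carry a tag with 5 μM and 48 h. The labels describe cultures of this line alone, so the data concern transcripts of tumour cells and not their contact with immune cells.

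Immune checkpoint ligands are proteins on a tumour cell that bind inhibitory receptors on lymphocytes or macrophages. PD-L1 (CD274) and PD-L2 (PDCD1LG2) both bind PD-1 on T cells, and their expression is known to follow interferon signalling through IRF1. B7-H3 (CD276) belongs to the same B7 family, CD47 binds SIRPα on macrophages and so restrains phagocytosis, and PVR (also called CD155) binds TIGIT and CD96 as well as the activating receptor CD226 on T and NK cells. CD55, CD46 and CD59 are not ligands of this kind in the first place. They protect cells from complement, CD55 by speeding the decay of the C3 and C5 convertases, CD46 as the cofactor with which factor I cleaves C3b and C4b, and CD59 by blocking assembly of the membrane attack complex. CD55 and CD59 are held in the membrane by a glycosylphosphatidylinositol (GPI) anchor, whereas CD46 spans it.

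The values are normalized counts, which are read counts per gene divided by a size factor of each library. Between 30750573 and 33446984 reads on genes per library lay behind them. Each member rested on at least 132 reads in every library, the fewest being those of PDCD1LG2, and CD59 had up to 20627. PDE7A mRNA, whose protein is the target of the compound, went from 406 ± 2.06 (SD, n = 3) to 298 ± 40.6 normalized counts (log2 fold change −0.45, adjusted p = 0.00199 in limma), which does not test inhibition of the enzyme. Of the line's markers, VIM, CD44, AXL, CAV1 and ANXA1 were abundant and were all called higher in BRL-50481, although AXL (log2 fold change 0.12) lost its call in 4 of 6 fits with a library omitted, those without DMSO replicate 3 or any 1 BRL-50481 library (limma adjusted p up to 0.0985). PGR lay between 0 and 7.75 normalized counts, while ESR1 was not analysed here. ERBB2 lay between 1606 and 1756 in DMSO and between 1864 and 1979 in BRL-50481. It was called higher (log2 fold change 0.19, limma adjusted p = 0.0119), a call lost in 2 of 6 fits with a library omitted (limma adjusted p up to 0.0663). Of 10 immune cell markers, 2 could be analysed here, CD14 and LYZ, with a summed level of 402 to 510 normalized counts in DMSO and 462 to 542 in BRL-50481. LYZ lay between 5.88 and 13.3 in DMSO and between 24.2 and 34.2 in BRL-50481. Of 7 fibroblast and endothelial markers, 4 could be analysed, whose summed level was 663 to 737 in DMSO and 812 to 915 in treated cells. PECAM1 went from 357 ± 35.7 to 498 ± 38.3 and COL1A1 from 337 ± 27 to 338 ± 25 (SD, n = 3 each). PECAM1 was called higher (log2 fold change 0.48, limma adjusted p = 0.000851) and COL1A1 was not called. CDH5, at 15.1 or below in every library, was called higher too, a call lost in 1 of 6 fits with a library omitted. CDH5 was at 0 in 1 library and PDGFRA in another. The part of these genes in the results was not tested. DMSO replicate 1 stood apart from the rest of its group. Against the other DMSO libraries its reads gave a chi-square of 13.7 and 22.1 per degree of freedom, where the other replicate pairs gave 2.63 to 3.99. In 6 of the 8 members it was the DMSO library nearest to the BRL-50481 mean.

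Treatment with BRL-50481 moved the members in both directions. PVR and CD55 fell to 0.627 of their DMSO level, and CD276 to 0.82. PDCD1LG2 rose 1.77-fold, and CD46, CD47 and CD59 rose by smaller amounts, 1.16-fold, 1.14-fold and 1.08-fold. The rise of CD274 was 1.06-fold and did not pass the threshold, which was 0.05 for the limma p-value after Benjamini-Hochberg adjustment across the tested genes. In all, 4 of the 8 were called higher, 3 lower and 1 was not called, with a median log2 fold change of 0.097, against 0.015 over all genes tested. Calls were common in this comparison, since 58.7% of all genes tested were called, 28.9% higher and 29.8% lower. For all 8 members the DMSO and BRL-50481 values were without overlap, which held for 64.2% of all genes tested. The share of members called is therefore read against a background in which most genes were called. In bulk RNA, a change in the share of cells that express a gene and a change in its RNA per cell cannot be told apart.

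**Figure D1:**
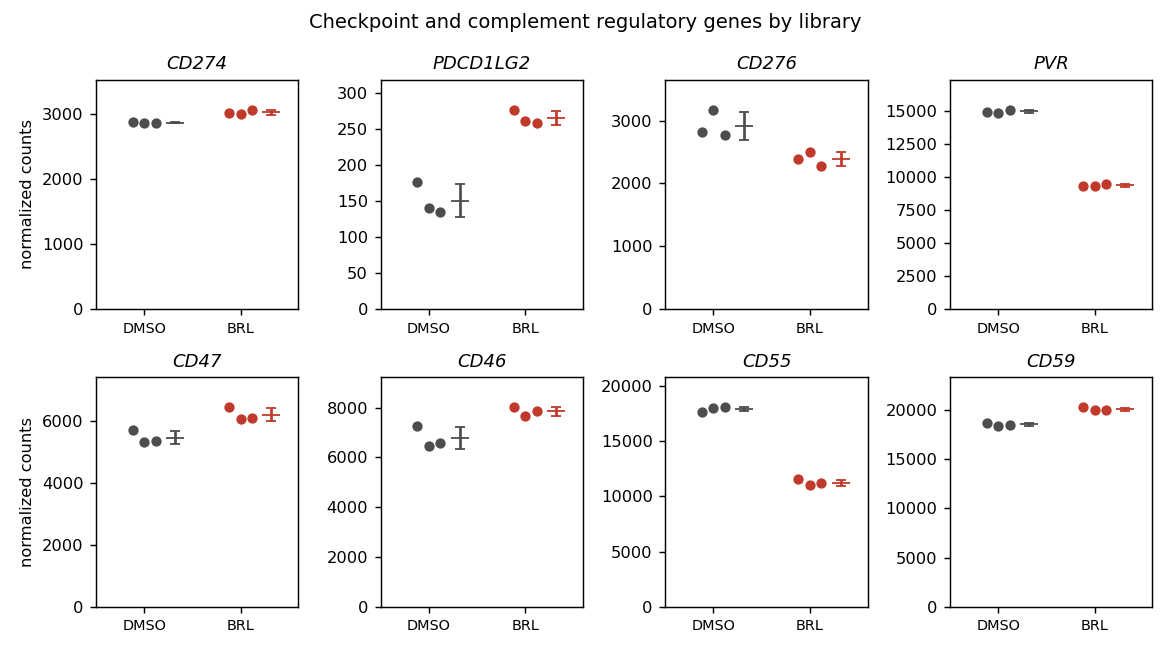
Normalized counts of each of the 8 genes (y axis, from 0, with its own scale in each panel) in the 3 DMSO libraries (grey points) and the 3 BRL-50481 libraries (red points), with the mean and SD of each group beside them. PVR and CD55 sit clearly lower after treatment (15008.6 against 9410.2, and 17893.4 against 11224.1), PDCD1LG2 sits higher (151 against 265), and CD274 is nearly level (2862.3 against 3021.2).

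The PD-1 ligands lie next to each other on chromosome 9 of hg38, CD274 from 5450503 to 5470566 and PDCD1LG2 from 5510531 to 5571282, both on the plus strand. CD274 had 2868, 2858 and 2860 normalized counts in the DMSO libraries and 3008, 2993 and 3063 in the BRL-50481 libraries. The BRL-50481 libraries were all above the DMSO libraries. The log2 fold change was 0.078 (standard error 0.0478, adjusted p = 0.18), with a 95% confidence interval from −0.026 to 0.18. With quantile normalization of the libraries the gene was called higher, at a log2 fold change of 0.13 (adjusted p = 0.0292 with limma). Once the dependence on transcript length and GC content was removed, the value was 0.00096 and was not called (limma adjusted p = 0.984).

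PDCD1LG2 was the member with the lowest level and the largest change. It had 177, 140 and 135 normalized counts in DMSO and 277, 261 and 258 in BRL-50481. Every treated library lay above the highest DMSO library, which was replicate 1. The log2 fold change was 0.82 (standard error 0.122, adjusted p = 7.17e-05), higher than that of 90.9% of the genes tested, and leaving out single libraries gave 0.75 to 0.94. Between these neighbouring genes, the ratio of CD274 to PDCD1LG2 normalized counts within a library was 16.2, 20.4 and 21.2 in DMSO and 10.9, 11.5 and 11.9 in BRL-50481. The ratio was thus lower in every treated library, a difference of −0.74 on the log2 scale (exact permutation test, two-sided, p = 0.1 and 0.133 after adjustment over 4 ratios, where 3 libraries against 3 cannot go below 0.1). Per kilobase of transcript, CD274 stood 10.9 to 14.2 times above PDCD1LG2 in DMSO and 7.27 to 7.95 times in BRL-50481.

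The CD274 promoter is shown because interferon signalling reaches CD274 through IRF1, a transcript measured in the same libraries. The stretch covers chr9:5450292-5450502 on the plus strand (GRCh38.p14, from RefSeq), and ends at the base before the start that GENCODE gives the gene. The capitals mark 2 overlapping matches, read on the opposite strand, to the core of the element bound by IRF proteins, which is GAAA, any 2 bases and GAAA again.

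CD274: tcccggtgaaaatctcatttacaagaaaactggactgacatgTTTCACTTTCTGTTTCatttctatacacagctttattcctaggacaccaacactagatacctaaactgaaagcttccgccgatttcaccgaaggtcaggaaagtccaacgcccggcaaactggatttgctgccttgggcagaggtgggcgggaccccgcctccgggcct

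This IRF core on either strand was present in 3.66% of 27305 windows of the same kind, each 250 bases before to 50 after a gene's start in RefSeq. Of the 7 members with a window, 1 held it, CD274. The GAS element TTCNNNGAA (N being any base) was also searched and was present in 7.88% of the windows. CD274 and CD59 each had 1 match to it, and the capitals above do not mark it. A match describes these letters and is not evidence of binding. IRF1 itself, singled out after its values were seen, had 3334, 3717 and 3495 normalized counts in DMSO and 2958, 2993 and 2992 in BRL-50481. It was lower in every treated library than in any DMSO library, the log2 fold change being −0.24 (standard error 0.0533, limma adjusted p = 0.0019).

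B7-H3 and PVR are ligands of T and NK cells outside the PD-1 axis, and both transcripts fell. CD276 (chromosome 15, 73683966 to 73714514) had 2813, 3173 and 2766 normalized counts in DMSO and 2389, 2502 and 2276 in BRL-50481. The highest treated library was below the lowest DMSO library, and the spread within DMSO came mostly from replicate 2. This was a log2 change of −0.29 with a standard error of 0.0634 (limma adjusted p = 0.00167), and leaving out single libraries gave −0.32 to −0.22.

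PVR (chromosome 19, 44643798 to 44666162) had 14980, 14907 and 15138 normalized counts in DMSO and 9330, 9371 and 9530 in BRL-50481. Replicates differed by little, with SDs of 118 and 106 around means of 15008.6 and 9410.2 (n = 3 each), so that the groups were far apart. The log2 fold change was −0.67 (standard error 0.0417, adjusted p = 3.92e-08), and −0.68 to −0.67 when any library was omitted. Only 8.29% of the genes tested had a lower log2 fold change. Exons of PVR overlap those of CEACAM19 and of an unnamed transcript on the same strand in GENCODE, and CEACAM19 had a mean of 196 normalized counts against 12209.4 for PVR. The nectins, relatives of PVR of which NECTIN1 and NECTIN3 were singled out after their values were seen, went in different directions. NECTIN1 went from 856 ± 59.5 to 574 ± 57.8 and NECTIN3 from 1486.4 ± 166 to 2131.5 ± 35.2 normalized counts (n = 3, SD), with log2 fold changes of −0.58 and 0.53 (adjusted p = 8.02e-05 and 3.94e-05 in limma). For NECTIN2, which lies 180.0 kb from PVR and is, like PVR, a ligand of CD226 and TIGIT, the log2 fold change was 0.04 with a standard error of 0.0554 (limma adjusted p = 0.558).

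CD47 (chromosome 3, 108043091 to 108091862, minus strand) had 5734, 5347 and 5348 normalized counts in DMSO and 6452, 6088 and 6112 in BRL-50481. All treated libraries were higher, and DMSO replicate 1 came closest to them. The log2 fold change was 0.18 (standard error 0.0497, adjusted p = 0.00635), and 0.16 to 0.22 when any library was omitted. Once the dependence on transcript length and GC content was removed from every library it was 0.049 and was not called (adjusted p = 0.188 in limma). The canonical transcript of CD47 is 5292 bases long with a GC content of 37.1%, the lowest of the members. The correction takes length and GC content together, and their parts were not tested apart.

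The complement regulators did not move together. CD55 (chromosome 1, 207321519 to 207386804, plus strand) had 17665, 17966 and 18048 normalized counts in DMSO and 11534, 10979 and 11159 in BRL-50481. The groups were separated by many times the spread within either (SD 202 and 283). Its log2 fold change of −0.67 (adjusted p = 4.92e-08 in limma, standard error 0.0429) was near that of PVR, and omitting any library gave −0.69 to −0.66.

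CD46, which lies 365.2 kb away on the same chromosome and strand (207752037 to 207795513), went the other way. It had 7267, 6473 and 6561 normalized counts in DMSO and 8011, 7674 and 7849 in BRL-50481. The DMSO spread (SD 435) came from replicate 1, which lay closer to the treated libraries than the other DMSO libraries did. On the log2 scale the change was 0.21 (standard error 0.0527, adjusted p = 0.00337), and 0.27 without DMSO replicate 1. Exons of CD46 overlap those of the non-coding MIR29B2CHG on the opposite strand, and the authors' methods state a count by strand.

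CD59 (chromosome 11, 33703010 to 33736479, minus strand) was the member with the highest normalized counts, 18715, 18403 and 18461 in DMSO and 20266, 19970 and 19993 in BRL-50481. The treated libraries were all higher, by a step that was large against the replicate SDs of 166 and 165 but small in proportion. The log2 fold change was 0.12 (standard error 0.0409, adjusted p = 0.0263). This call was the least secure of the 7. Omitting a library lost it in 5 of 6 fits, all but the one without DMSO replicate 1, with adjusted p-values from limma of up to 0.0955. The value turned to −0.058 (adjusted p = 0.179 in limma) with the joint correction for length and GC content. The canonical transcript of CD59, of 7563 bases, is the longest of the members and has a GC content of 45.2%. Its exons also overlap an unnamed transcript on the same strand.

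**Figure D2:**
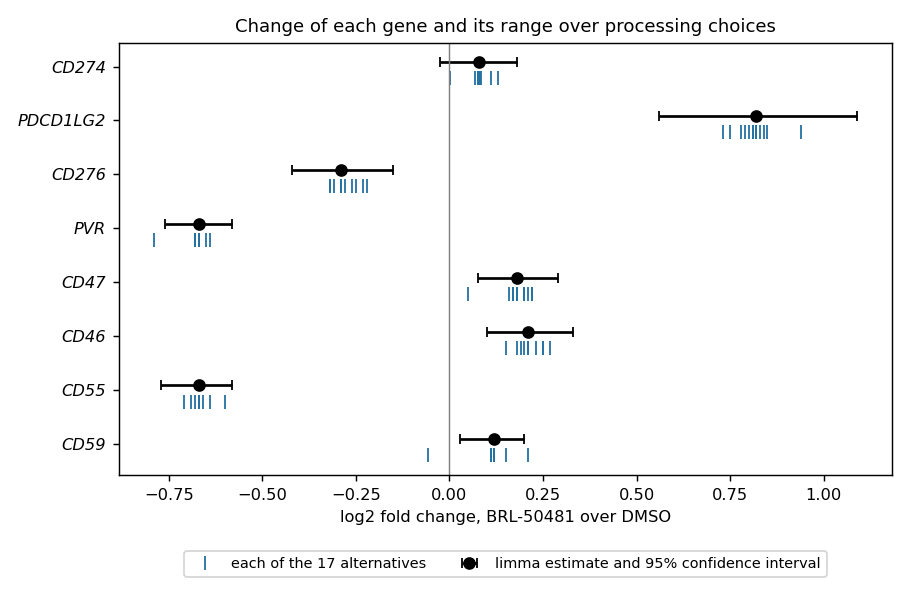
Log2 fold change of BRL-50481 over DMSO for each gene (x axis), with the limma estimate and its 95% confidence interval (black) and the estimates under the 17 other processing choices and left-out libraries (blue ticks). PVR stays between −0.79 and −0.64, CD55 between −0.71 and −0.60 and PDCD1LG2 between 0.73 and 0.94, whereas CD59 reaches from −0.058 to 0.21 and the interval of CD274 includes 0.

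Within a library, CD46 rose relative to CD55. The ratio of their normalized counts was 0.411, 0.36 and 0.364 in DMSO and 0.695, 0.699 and 0.703 in BRL-50481, a difference of 0.89 on the log2 scale. The ratio of CD55 to CD59 went from 0.944, 0.976 and 0.978 to 0.569, 0.55 and 0.558, a difference of −0.79. For both, treated and DMSO values did not overlap (exact permutation p = 0.1, the smallest possible, two-sided, adjusted p = 0.133). The ratio of CD46 to CD59 was 0.388, 0.352 and 0.355 in DMSO and 0.395, 0.384 and 0.393 in BRL-50481, where the groups overlapped (exact permutation p = 0.2, adjusted p = 0.2). Per kilobase of canonical transcript, CD55 made up 59.4% to 61.3% of the summed level of the 3 regulators in DMSO and 46.1% to 46.7% in BRL-50481. CD46 made up 17.2% to 19.1% and 25.1% to 25.4%, and CD59 21.4% to 21.5% and 28.1% to 28.7%.

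**Figure D3:**
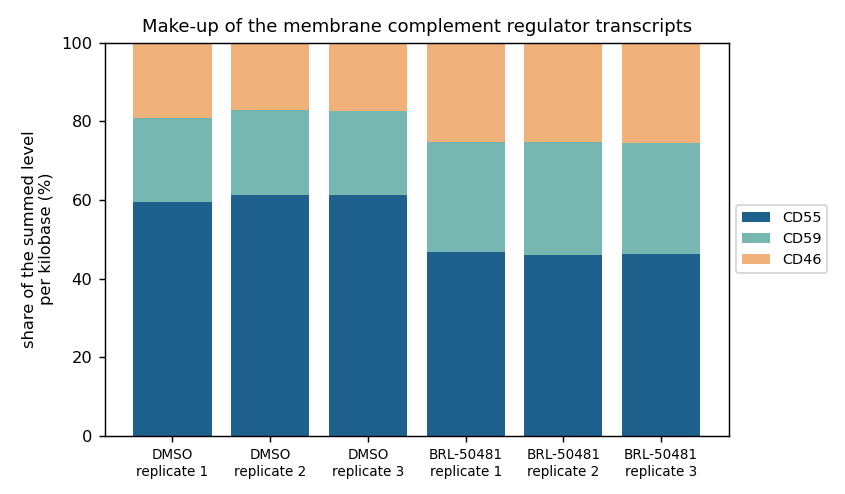
Share of each regulator (y axis, in percent) in the summed level of CD55, CD59 and CD46, in normalized counts per kilobase of canonical transcript, for each of the 6 libraries. The CD55 share is 59.4% or more in every DMSO library and 46.7% or less in every BRL-50481 library, and the shares of CD46 and CD59 are correspondingly larger.

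The order of levels among the members changed with this. In normalized counts per kilobase, the DMSO cells had CD55 at 6908.6 ± 77.8, PVR at 2591.3 ± 20.4, CD59 at 2449.6 ± 21.9 and CD46 at 2038.2 ± 131 (SD, n = 3). CD47 (1034.8 ± 42.2), CD276 (885 ± 67.5), CD274 (788 ± 1.49) and PDCD1LG2 (61.9 ± 9.36) followed. No neighbours in this order overlapped in their 3 values. After BRL-50481, CD55 was still first at 4333.6 ± 109, then CD59 at 2654.6 ± 21.8, CD46 at 2362.9 ± 50.8 and PVR at 1624.7 ± 18.2. CD274 (831 ± 10.2) stood above CD276 (725 ± 34.3), and their values did not overlap. These levels rest on the canonical transcript lengths of GENCODE, while the cells may use other isoforms.

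CD55 and CD47 each had 2 matches to TGACG, the half-site of the cAMP response element, in their promoter windows, and CD46 had 1. The half-sites are shown because a PDE7A inhibitor acts on cAMP, and because CD55 and CD46 moved in opposite directions. Capitals mark the half-site or its reverse complement. Counted from the RefSeq start, the half-sites begin 147 and 70 bases upstream in CD55, 214 upstream in CD46, and 114 upstream and 26 downstream in CD47. The GENCODE starts printed above lie further upstream for CD55 and CD47, so that their stretches fall inside those genes as GENCODE draws them, while that of CD46 lies before its GENCODE start. The CD55 stretches are chr1:207321521-207321545 and chr1:207321598-207321622, and that of CD46 is chr1:207751814-207751838, all on the plus strand. The CD47 stretches are chr3:108091131-108091155 and chr3:108090991-108091015 on the minus strand (GRCh38.p14, from RefSeq).

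CD55 first site: ccggggcgtaTGACGccggagccct
CD55 second site: ccacccttggTGACGcagagcccca
CD46 site: gtcacaaataTGACGgcgagccagt
CD47 first site: gagggcgccgCGTCAacagcagcgg
CD47 second site: gtcctgcctgTGACGcgcggcggcg

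The half-site on either strand was present in 25% of the 27305 windows and in 3 of the 7 members with one, CD55, which fell, and CD46 and CD47, which rose. The full element TGACGTCA (1.97% of windows) and the E-box CACGTG bound by MYC (7.4%) had no match in any of the 7. PDCD1LG2 had no window.

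Further immune regulatory surface proteins and ligands were divided as well. Of 32 genes listed, 22 could be tested, of which 7 were called higher, 3 lower and 12 were not called (median log2 fold change 0.10). Beside this and the list counts below, 28.9% of all genes tested were called higher and 29.8% lower. NT5E (CD73), which makes immunosuppressive adenosine, was the most abundant. It had 20245, 19287 and 19616 normalized counts in DMSO and 27535, 26476 and 26413 in BRL-50481, all treated libraries being higher, with a log2 fold change of 0.44 (adjusted p = 1.9e-06 in limma). TNFSF10 (TRAIL), a death receptor ligand, rose from 2542.5 ± 191 to 4329.3 ± 133. CD24, which binds Siglec-10 on macrophages, fell from 826 ± 18.4 to 401 ± 7.87, and TNFSF9 (4-1BB ligand), a T cell costimulator, fell from 266 ± 24.9 to 166 ± 28 (SD, n = 3 each). Their log2 fold changes were 0.77, −1.04 and −0.69 (adjusted p = 2.79e-07, 8.69e-08 and 0.000551 in limma). CD24 and CD47, which both restrain phagocytosis, thus went in opposite directions at the RNA level. The CD47 call was lost with the length and GC correction, as given above.

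Among 9 tested ligands that activate NK cells, of 11 listed, 4 were called lower and 5 were not called in limma, with a median log2 fold change of −0.15. Over all genes tested, 29.8% were called lower and 58.7% in either direction. The 4 ligands called lower bind the receptor NKG2D, of whose ligands 7 were tested. The others, RAET1E, RAET1G and RAET1L, had log2 fold changes of 0.10, −0.15 and 0.43 and were not called (adjusted p = 0.681, 0.501 and 0.541 in limma). RAET1L was near the filter on low values, between 2.04 and 10.1 normalized counts, and its log2 fold change had a standard error of 0.57. ULBP2 had 819, 992 and 922 normalized counts in DMSO and 482, 422 and 456 in BRL-50481, every treated library being lower, a fall to 0.499 of the DMSO level on the log2 fit (limma adjusted p = 6.5e-07). MICA fell from 2534.5 ± 147 to 1866.2 ± 26.7, MICB from 2489.9 ± 154 to 1905.4 ± 99.6 and ULBP3 from 68 ± 12.1 to 41.6 ± 8.17 (SD, n = 3 each). The ULBP3 call was lost without BRL-50481 replicate 1 (limma adjusted p = 0.055). The adhesion ligand CD58, chosen like the RAET1 genes after its values were seen, had a log2 fold change of 0.065 (standard error 0.0727).

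Of 22 genes of the complement system, 16 were tested, with 6 higher, 4 lower and 6 not called (median log2 fold change 0.13). C3, the central component on whose fragments CD46 and CD55 act, had 13203, 12414 and 12340 normalized counts in DMSO and 12865, 13401 and 13138 in BRL-50481, which overlapped (log2 fold change 0.054, standard error 0.0456, adjusted p = 0.324). CFP (properdin), which stabilizes the C3 convertase, rose from 286 ± 15.7 to 648 ± 47.4 normalized counts (n = 3, SD), by 1.17 on the log2 scale (adjusted p = 1.73e-07 in limma). C1QBP, a mainly mitochondrial protein that also binds C1q, fell from 11312.3 ± 753 to 6034.5 ± 179, a log2 fold change of −0.90 (adjusted p = 3.06e-08).

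The 15 listed regulators of PD-L1 transcription, all tested, were split between 7 higher and 6 lower. MYC, a transcription factor reported to activate CD274 and CD47, fell most, from 26024, 28761 and 28138 to 12098, 12446 and 12330 normalized counts, with a log2 fold change of −1.17 (adjusted p = 1.63e-09 in limma). JAK2, a kinase of interferon signalling, rose from 222 ± 50 to 296 ± 21 and NFKB1 from 1682.1 ± 70.6 to 2272.0 ± 81.5 (n = 3, SD). On the log2 scale these rises were 0.44 and 0.43 (adjusted p = 0.0206 and 2.58e-05 in limma). The JAK2 call was lost in 3 of 6 fits with a library omitted, those without DMSO replicate 2, BRL-50481 replicate 1 or BRL-50481 replicate 3, with limma adjusted p-values up to 0.0765 and log2 fold changes of 0.24 to 0.57 over the 6. HIF1A rose by 0.21 (adjusted p = 0.00486).

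Of 19 genes that process PD-L1 or CD47 protein, 3 were higher, 8 lower and 8 not called. QPCTL, the enzyme that forms the pyroglutamate with which CD47 binds SIRPα, had 1116, 1372 and 1306 normalized counts in DMSO and 761, 916 and 841 in BRL-50481. This was a log2 fold change of −0.59 (adjusted p = 7.79e-05 in limma). CD47 itself rose by 0.18, a call that was lost with the length and GC correction. STT3A, a catalytic subunit of the N-glycosylation machinery that modifies PD-L1, fell by 0.45 on the log2 scale (adjusted p = 1.52e-06), and for its paralog STT3B the value was −0.12 (adjusted p = 0.0555). ADAM10, a protease that sheds PD-L1, rose by 0.47 on the log2 scale, from 6419.4 ± 657 to 8840.3 ± 104 (n = 3, SD, adjusted p = 3.3e-05 in limma).

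GPI anchors hold CD55 and CD59, and of 28 tested genes of their synthesis, of 29 listed, 12 were higher, 6 lower and 10 not called (median log2 fold change 0.17). PIGZ rose from 44.2 ± 3.82 to 114 ± 7.95 and PIGV, a mannosyltransferase, from 369 ± 29.4 to 619 ± 25.1 normalized counts (SD, n = 3 each), with log2 fold changes of 1.35 and 0.75 (adjusted p = 9.97e-06 and 6.76e-06 in limma). PIGH, a subunit of the complex that starts the anchor, fell from 849 ± 97.1 to 458 ± 11.5, a log2 fold change of −0.88 (adjusted p = 1.87e-06 in limma). PIGT and GPAA1, subunits of the transamidase that attaches the anchor and the most abundant of the list, had log2 fold changes of 0.12 and 0.13 (adjusted p = 0.0861 and 0.156).

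Of the proteins that bind the members, 7 of 12 listed were tested, with 5 higher and 1 lower. THBS1 (thrombospondin-1), a secreted ligand of CD47, rose from 41959, 35396 and 36330 to 46164, 48201 and 46962 normalized counts, by 0.32 on the log2 scale (adjusted p = 0.00047 in limma). ADGRE5 (CD97), the receptor of CD55, rose by 0.34 while CD55 fell, and JAG1, which binds CD46, and ITGB3, whose integrin associates with CD47, rose by 0.68 and 0.60 (adjusted p = 6.78e-05, 5.27e-07 and 4.22e-05 in limma). SIRPA, the receptor of CD47, had a low level, with 85.4 ± 5.96 normalized counts in the vehicle group and 44.7 ± 2.98 after treatment (SD, n = 3). Its log2 fold change was −0.92 (limma adjusted p = 0.000385).

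**Figure D4:**
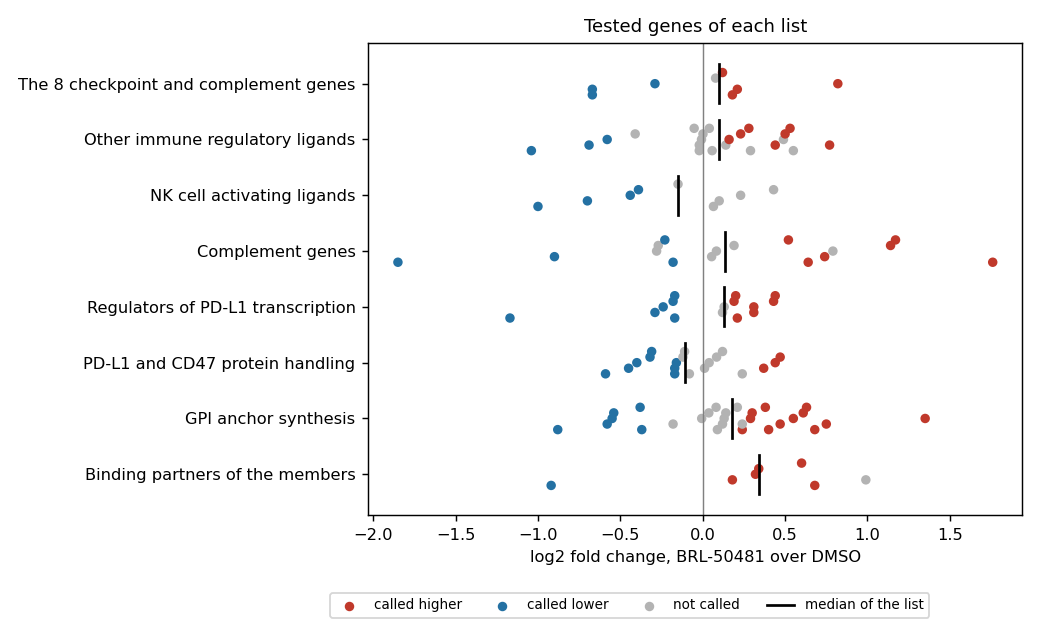
Log2 fold change of BRL-50481 over DMSO (x axis) for each tested gene of the 8 lists (rows), coloured by whether limma called it higher (red), lower (blue) or neither (grey), with the median of each list as a black bar. Calls in both directions occur in every list except the NK cell activating ligands, where the 4 called genes of 9 tested are all lower. Over all genes tested, 28.9% were called higher and 29.8% lower.

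The genes around the members on their chromosomes also differed in direction. Of the 7 genes tested within 500 kb of CD274, 3 were higher and 4 not called in limma. The 3 were PDCD1LG2, JAK2, whose call depended on single libraries as given above, and PLGRKT, the last with a log2 fold change of 0.66 and, like the other neighbours named here, chosen after its values were seen. For RIC1 the log2 fold change was 0.093 (limma adjusted p = 0.389). Around CD55, 6 of 12 genes tested were higher, the member CD46 among them, 2 lower and 4 not called. Between CD55 and CD46 lies CR2, the receptor for C3d, which went from 61.5, 67.6 and 68.4 to 17.1, 16.1 and 19.4 normalized counts, a log2 fold change of −1.85 (adjusted p = 8.19e-06 in limma). Around PVR, 12 of 26 were lower, 2 higher and 12 not called. The shares over all genes tested were 28.9% higher and 29.8% lower, with 58.7% called.

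Over the whole table, the gene with the profile nearest to each member was found by the root mean square difference of centred log2 values over the 6 libraries, among 11447 genes with a mean of at least 100 normalized counts. It was IFI16, an interferon-inducible DNA sensor, for CD274 (difference 0.012), CDCA2 for PDCD1LG2 (0.0404), NIF3L1 for CD276 (0.0177), TMED10 for CD47 (0.0161), PYGL for PVR (0.0152), HSBP1 for CD55 (0.0209), PTPDC1 for CD59 (0.0135) and SP3 for CD46 (0.0139). PYGL, a glycogen phosphorylase, had a log2 fold change of −0.70 beside the −0.67 of PVR, and HSBP1 one of −0.69 beside that of CD55. The match was made on these same libraries, so close fold changes follow from the selection.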

How the data were processed

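MDA-MB-231 RNA from 3 DMSO and 3 BRL-50481 samples, described as biological replicates, was sequenced. The labels describe oligo-dT selection and stranded libraries, while the series text describes ribosomal RNA depletion. The authors aligned reads with STAR 2.7.1a to hg38, counted them per gene and strand with HTSeq on UCSC annotation, and filtered genes by requiring at least 3 samples with 4 or more normalized counts. The deposited values are a signal, namely counts divided by DESeq2 1.28 size factors, 1 column per library. All values were whole multiples of 1 read (tolerance 0.001), which was worth 0.9693 to 1.0215, and gave 30750573 to 33446984 reads per library. The deposited fold changes and p-values were not used.

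Here log2(normalized count + 1) was tested with limma 3.58.1 (R 4.3.3, eBayes with trend, all 6 libraries, Benjamini-Hochberg over 15246 genes with at least 4 normalized counts in at least 3 libraries), so that fold changes of low genes are understated. Ratios within a library were tested by exact permutation. The alternatives were edgeR 4.0.16 and DESeq2 1.42.0 on recovered reads, other pseudocounts, filters and normalizations, a fit without trend, a length and GC correction, a replicate block and each library left out. Scripts were tested on simulated data. Positions, lengths and GC content came from GENCODE (hg38), with values for 96.5% of genes. The members and lists were chosen with earlier results of these data known. Named genes were, per list, the 3 called genes of largest absolute log2 fold change with a mean of at least 50 normalized counts and the 2 most abundant, and any other is marked as chosen after its values were seen. Of the genes this rule names, 1 is not reported here. Likeness was computed over genes with a mean of at least 100 normalized counts. The table lists NECTIN1, NECTIN2 and NECTIN3 under older symbols.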

Additional observations from a re-analysis of the deposited data

How the results depend on the processing

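Of 136 values of the 8 members under 17 alternatives each, 127 kept their direction and their side of the threshold, and 1 reversed. PVR, CD55, CD276, CD46 and PDCD1LG2 kept both under all 17. With quantile normalization CD274 was called higher (log2 fold change 0.13, adjusted p = 0.0292 in limma). With the length and GC correction CD47 lost its call at 0.049 and CD59 reversed at −0.058. CD274, which stayed uncalled, was at 0.00096 with it. CD59 was also not called without the limma trend (0.12, adjusted p = 0.0599), nor in 5 of 6 fits with a library left out, over which its log2 fold change was 0.11 to 0.12. Of 238 counts over lists, 235 were within 1.5 times the value given. With quantile normalization, the lower calls were 3 among regulators of PD-L1 transcription and 5 among genes that handle PD-L1 and CD47 protein, and the higher calls among NK cell activating ligands ranged from 0 to 1 with a library left out, 1 being without DMSO replicate 1. The cause was not tested in any of these. Over all genes, 3751 to 4876 were higher and 4027 to 5487 lower. edgeR called 4358 higher and 4574 lower, DESeq2 4097 and 4356, and neither changed the call of a member. Same-numbered libraries deviated together only weakly (r from 0.051 to 0.121), although 5 of 6 libraries correlated best with their own number. No pairing is known beyond the shared number, and these correlations cannot decide it. With the replicate block, 4440 genes were higher and 4589 lower, and no member's call changed. With 3 libraries per group, the ratios within a library cannot reach a p-value under 0.1, and PDCD1LG2 rests on 132 to 275 reads per library.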
